A study of Saccharomyces cerevisiae with 21 samples.

Results

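The genes described here let Saccharomyces cerevisiae take up allantoin, allantoate and urea and use them as nitrogen sources. They were chosen by name, as 10 genes of this pathway, out of 5656 genes measured on the arrays. A value could be given for 9 of the 10, because the probe annotation used here names no probe set for DUR1,2 (YBR208C), the urea amidolyase, which was not analysed. The samples are 21 one-colour Affymetrix arrays of total RNA from a wine fermentation that ran for about 15 days, with 3 biological replicates at each of 7 times. Cells were harvested at 1 h and 12 h, for which the labels give no ethanol level, and at 24 h (0.5% ethanol), 48 h (2%), 60 h (3.5%), 120 h (7%) and 340 h (10%). The labels name no strain, mutation or added agent for any group. Time and ethanol rise together, so their parts cannot be told apart.

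Allantoin is a nitrogen-rich breakdown product of purines. Yeast takes it up through DAL4 and converts it in turn with allantoinase (DAL1), allantoicase (DAL2) and ureidoglycolate lyase (DAL3) to urea and glyoxylate. DAL5 carries allantoate and some dipeptides, DUR3 carries urea and polyamines, and DUR1,2 splits urea to ammonia and carbon dioxide. DAL7 is a malate synthase that uses the glyoxylate. The pathway is held down while good nitrogen sources last (nitrogen catabolite repression), through the GATA activators GLN3 and GAT1 and the GATA repressors DAL80 and GZF3, and it is induced by the pathway intermediate allophanate through the activators DAL81 and DAL82. In wine the pathway is known for urea, which can react with ethanol to ethyl carbamate.

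Values are log2 signals as deposited, and a difference of 1 is a 2-fold change in signal. Changes are log2 differences of the later time minus the earlier one, ± the standard error (SE) from limma. A gene is said to have risen, fallen or passed where the adjusted p (Benjamini-Hochberg, over all 5656 genes) was under 0.05. The signals of different genes come from different probes and are not set against each other, except to mark genes as dim. Across all genes, the array medians lay between 6.62 and 6.90. The array of 24 h replicate 3 had the lowest mean correlation with the other arrays of its time (0.960, with 0.974 to 0.991 for the other arrays). The array of 48 h replicate 3 was the lowest of the 3 arrays of its time for 8 of the 9 genes, and for 54% of all genes. The labels call the replicates biological without saying what separated them, so the tests measure the spread between these samples.

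The allantoin and urea genes rose mainly between 24 h and 48 h, and then took different paths. At 48 h, 7 of the 9 genes were higher than at 24 h, 0 were lower and 2 did not pass, where 12.8% of all genes were higher and 8.42% lower. Their median change was 1.52, against -0.02 for all genes. At 60 h, 5 of 9 were higher than at 24 h (22.6% of all genes) and 0 lower (20.8% of all genes), with a median of 0.83. At 120 h, 7 of 9 were higher (26.6% of all genes) and 0 lower (also 26.6%), with a median of 1.02. Fewer cells with a transcript and less of it per cell cannot be told apart in such samples. At 340 h, 4 were higher than at 24 h (27.8% of all genes) and 1, DAL81, was lower (36% of all genes), with a median of 0.09. These 4 comparisons share the 24 h arrays and are not independent. Leaving out 24 h replicate 3 gave 6, 5, 6 and 5 genes past the threshold at 48, 60, 120 and 340 h, and leaving out 48 h replicate 3 gave 6 at 48 h. The call lost at 48 h was that of DAL5 in both cases, and the one lost at 120 h was that of DAL4. A moderated F test over the 5 main times passed for all 9 genes, where 73.8% of all genes passed, and over all 7 times for all 9, where 89.2% did.

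**Figure D1:**
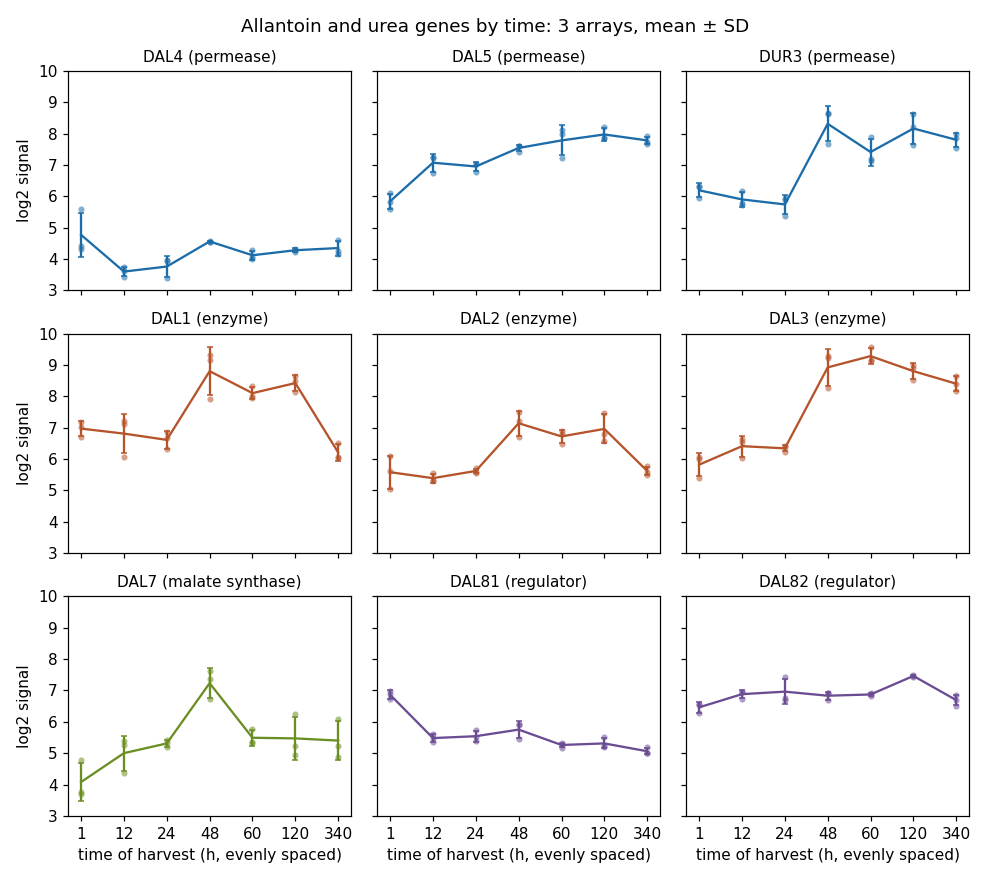
Log2 signal (vertical axis) of the 9 measured allantoin and urea genes at 7 harvest times (horizontal axis, evenly spaced, not to scale). Points are single arrays, and lines and bars are the mean ± SD of 3 arrays. DAL1, DAL2, DAL3, DUR3 and DAL7 are all higher at 48 h than at 24 h, and DAL7 alone of the 5 is back at 5.49 by 60 h.

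DUR3, the urea permease (YHL016C, chromosome VIII), had the clearest change of the 3 permeases. Its signal was 6.31, 6.32 and 5.94 at 1 h, 5.73, 5.80 and 6.16 at 12 h and 5.95, 5.89 and 5.38 at 24 h. The 48 h arrays gave 8.64, 8.63 and 7.66, those of 60 h 7.90, 7.20 and 7.12, those of 120 h 8.20, 7.64 and 8.63, and those of 340 h 8.0, 7.55 and 7.86. Every array from 48 h on lay above every array up to 24 h. DUR3 averaged 8.31 ± 0.56 at 48 h and 5.74 ± 0.31 at 24 h (SD, n = 3 each), a change of 2.56 ± 0.29 (5.92-fold, limma adjusted p = 5.14e-06). It was still 4.17-fold higher at 340 h than at 24 h (2.06 ± 0.29, limma adjusted p = 6.79e-06). The steps between the later times, of -0.90 ± 0.29 at 60 h against 48 h, 0.75 ± 0.29 at 120 h against 60 h and -0.36 ± 0.29 at 340 h against 120 h, did not pass (limma adjusted p = 0.0675, 0.114 and 0.341). The step to 60 h passed without 24 h replicate 3 (adjusted p = 0.0458) or without 48 h replicate 3, the lowest array of its time (-1.22, adjusted p = 0.0219). It also passed in a fit of all 21 arrays (0.0411), with centring on array medians (0.0466) or reference genes (0.0469), and with a replicate block (0.0396). The step to 120 h passed with centring on reference genes (1.06, adjusted p = 0.0132).

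DAL5, the allantoate permease (YJR152W, chromosome X), was higher at each time from 48 h on than at 24 h on its brightest probe set, and also at 12 h than at 1 h. It had signals of 5.61, 5.82 and 6.10 at 1 h, 6.73, 7.26 and 7.21 at 12 h, and 7.03, 6.78 and 7.04 at 24 h. Later it had 7.61, 7.59 and 7.42 at 48 h, 8.10, 7.23 and 8.0 at 60 h, 7.85, 7.86 and 8.20 at 120 h, and 7.68, 7.92 and 7.74 at 340 h. DAL5 was the only permease higher at 12 h than at 1 h (1.22 ± 0.21, 2.34-fold, limma adjusted p = 2.22e-05), when 26% of all genes were higher. Against 24 h it was higher by 0.59 ± 0.20 at 48 h (limma adjusted p = 0.0448) and by 1.02 ± 0.20 at 120 h (limma adjusted p = 3.42e-04). The call at 48 h was lost without any 1 of the 6 arrays compared (adjusted p = 0.0508 to 0.141), and also without 120 h replicate 2 (0.0551), 340 h replicate 1 (0.0501) or 340 h replicate 3 (0.0529), which enter through the shared spread. DAL5 has 3 probe sets, and its values here are those of the brightest. At 12 h against 1 h the other probe sets gave 0.44 ± 0.24, which did not pass (limma adjusted p = 0.114), and 0.79 ± 0.29, which did (limma adjusted p = 0.0222). Against 24 h they gave 0.15 ± 0.24 and 0.55 ± 0.32 at 48 h, which did not pass, and 0.88 ± 0.24 and 1.01 ± 0.32 at 60 h, which did (limma adjusted p = 0.00726 and 0.0149). At 120 h they gave 1.02 ± 0.24, which passed (limma adjusted p = 0.00178), and 0.71 ± 0.32, which did not (limma adjusted p = 0.0672). At 340 h against 24 h the brightest gave 0.83 ± 0.20, which passed, and the other probe sets gave 0.13 ± 0.24 and 0.48 ± 0.32, which did not. At 340 h against 120 h the first of these other probe sets fell (-0.89 ± 0.24, limma adjusted p = 0.00697). The brightest (-0.19 ± 0.20) and the remaining one (-0.23 ± 0.32) did not pass there.

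DAL4, the allantoin permease (YIR028W, chromosome IX), was dim on average, and 7.51% of all genes had a lower mean signal. Its 1 h arrays read 4.42, 5.58 and 4.32, and its 12 h arrays 3.44, 3.63 and 3.73. The 24 h arrays read 3.95, 3.96 and 3.38, the 48 h arrays 4.53, 4.55 and 4.58, and the arrays from 60 h to 340 h lay between 4.01 and 4.62. DAL4 was higher at 48 h than at 24 h by 0.79 ± 0.18 (1.73-fold, limma adjusted p = 0.00356), with no overlap of the arrays. Its change at 340 h against 24 h was 0.58 ± 0.18 (limma adjusted p = 0.00801), and that at 120 h was 0.51 ± 0.18, a call lost without 120 h replicate 3 (adjusted p = 0.0544) or without 24 h replicate 3 (0.32, adjusted p = 0.107), and in a fit of all 21 arrays (adjusted p = 0.0726). It was lower at 12 h than at 1 h (-1.17 ± 0.24, limma adjusted p = 2.05e-04, and -0.77 with adjusted p = 0.00172 without the high array of 1 h replicate 2). FUR4 and FUI1, the uracil and uridine permeases related to DAL4 in sequence, did not pass at 48 h against 24 h, with changes of -0.08 ± 0.18 and 0.10 ± 0.24. Like DAL4, both were lower at 12 h than at 1 h (-1.10 and -3.19), when 33.9% of all genes were. Unlike DAL4, both were lower at 340 h than at 24 h in the main fit (-0.71 and -1.43, 36% of all genes).

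The genes of the 3 allantoin enzymes all rose at 48 h. By 340 h DAL1 and DAL2 had fallen, and DAL3 was still above its 24 h level. DAL1 (YIR027C, chromosome IX) read 6.70, 7.03 and 7.17 at 1 h, 6.08, 7.13 and 7.21 at 12 h, and 6.85, 6.67 and 6.31 at 24 h. It read 9.31, 9.17 and 7.92 at 48 h, 8.33, 7.96 and 8.01 at 60 h, 8.63, 8.49 and 8.15 at 120 h, and 6.52, 6.08 and 6.03 at 340 h. The arrays of 48, 60 and 120 h all lay above those of the other 4 times. The mean was 8.80 ± 0.77 at 48 h and 6.61 ± 0.28 at 24 h, a rise of 2.19 ± 0.28 (4.58-fold, limma adjusted p = 2.21e-05). At 340 h DAL1 was 4.64-fold lower than at 120 h (-2.21 ± 0.28, limma adjusted p = 1.18e-05). Its change at 340 h against 24 h was -0.40 ± 0.28 and did not pass (95% interval -0.99 to 0.20).

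DAL2 (YIR029W, chromosome IX) also rose at 48 h and fell at 340 h. Its signals were 5.61, 6.09 and 5.04 at 1 h, 5.34, 5.29 and 5.55 at 12 h, and 5.70, 5.57 and 5.58 at 24 h. They were 7.50, 7.21 and 6.71 at 48 h, 6.90, 6.48 and 6.79 at 60 h, 7.48, 6.59 and 6.81 at 120 h, and 5.59, 5.77 and 5.49 at 340 h. Here too the arrays of 48 h to 120 h lay above all the others. The rise at 48 h against 24 h was 1.52 ± 0.22 (2.87-fold, limma adjusted p = 8.39e-05), and DAL2 was 2.53-fold lower at 340 h than at 120 h (-1.34 ± 0.22, limma adjusted p = 1.48e-04). Its mean was 5.62 ± 0.14 at 340 h and 5.62 ± 0.071 at 24 h, with a 95% interval of -0.47 to 0.47 for the difference.

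DAL3 (YIR032C, chromosome IX) had the widest range of time means of the 9 genes, 3.46. It read 6.01, 6.06 and 5.39 at 1 h, 6.03, 6.65 and 6.54 at 12 h, and 6.40, 6.23 and 6.39 at 24 h. From 48 h on it read 9.22, 9.29 and 8.25 at 48 h, 9.11, 9.15 and 9.58 at 60 h, 9.0, 8.89 and 8.52 at 120 h, and 8.64, 8.38 and 8.17 at 340 h. The groups before and after the step between 24 h and 48 h did not overlap. The change against 24 h was 2.58 ± 0.24 at 48 h (5.98-fold, limma adjusted p = 5.81e-07), 2.94 ± 0.24 at 60 h (7.68-fold) and 2.06 ± 0.24 at 340 h (4.17-fold, limma adjusted p = 6.94e-07). The step at 340 h against 120 h was -0.41 ± 0.24 for DAL3 and did not pass (95% interval -0.91 to 0.10). The interval for DAL1 in that step ran from -2.81 to -1.62 and that for DAL2 from -1.81 to -0.87. In the step at 340 h against 120 h, 3 of the 9 genes fell (DAL1, DAL2 and DAL82) and 0 rose, where 26.6% of all genes fell and 15.9% rose.

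**Figure D2:**
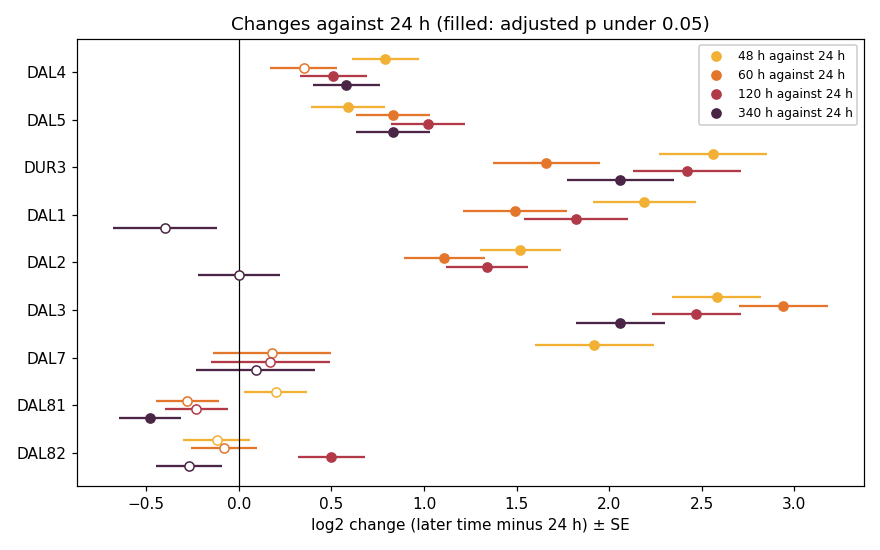
Log2 change of each gene (rows) at 48, 60, 120 and 340 h against 24 h (horizontal axis, later time minus 24 h), with bars of 1 SE from limma. Filled points passed at an adjusted p under 0.05. DAL3 and DUR3 stay more than 1 log2 unit above 24 h throughout, DAL1 and DAL2 do not pass at 340 h, and DAL7 does not pass from 60 h on.

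DAL7, the malate synthase gene of the pathway (YIR031C, chromosome IX), was high at a single time. Its signals were 3.76, 4.77 and 3.69 at 1 h, 4.36, 5.38 and 5.26 at 12 h, and 5.42, 5.18 and 5.32 at 24 h. They were 7.61, 7.37 and 6.71 at 48 h, then 5.78, 5.37 and 5.33 at 60 h, 6.25, 5.23 and 4.94 at 120 h, and 6.09, 5.22 and 4.87 at 340 h. The lowest 48 h array was above every array of the other 6 times. DAL7 averaged 7.23 ± 0.47 at 48 h and 5.31 ± 0.12 at 24 h, a rise of 1.92 ± 0.32 (3.79-fold, limma adjusted p = 3.23e-04). It was 3.34-fold lower at 60 h than at 48 h (-1.74 ± 0.32, limma adjusted p = 0.00289), and this call held without each array of those times in turn (adjusted p = 0.00306 to 0.0211). In the main fit of 15 arrays it was the only 1 of the 9 genes to fall in that step, where 4.6% of all genes fell, and 0 of the 9 rose, where 3.48% did. Without 48 h replicate 3, the low array, 4 of the 9 fell: DAL7, DUR3 (-1.22, adjusted p = 0.0219), DAL1 (-1.15, adjusted p = 0.00584) and DAL81 (-0.64, adjusted p = 0.0452). In that fit 223 of all 5656 genes were called, 82 of them as higher. At 60, 120 and 340 h the changes of DAL7 against 24 h were 0.18, 0.17 and 0.09 (each ± 0.32), and none passed. Their 95% intervals were -0.50 to 0.86 at 60 h, -0.51 to 0.85 at 120 h and -0.59 to 0.77 at 340 h. The steps of DAL1 (-0.71 ± 0.28) and DAL2 (-0.41 ± 0.22) at 60 h did not pass, and whether that of DAL7 differs from them was not tested.

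The other malate synthase gene, MLS1, of the glyoxylate cycle, moved the other way in that step. MLS1 read 8.80, 8.55 and 8.74 at 60 h, against 8.07, 7.99 and 7.96 at 48 h and 7.36, 7.17 and 7.32 at 24 h. It was higher at 60 h than at 48 h by 0.69 ± 0.18 (limma adjusted p = 0.0245), a call lost without 5 of the 6 arrays compared, each left out alone (adjusted p = 0.0599 to 0.104, and 0.126 with centring on reference genes). At 340 h it was 1.10 ± 0.18 above 24 h (limma adjusted p = 3.80e-05). Of the 3 listed genes of glyoxylate use, 2 rose at 48 h against 24 h (12.8% of all genes) and all 3 at 60, 120 and 340 h (22.6%, 26.6% and 27.8% of all genes). ICL1 drops out without 24 h replicate 3 at 60 h (adjusted p = 0.178) and at 120 h (0.216), without 60 h replicate 1 (0.0518) or 2 (0.107) at 60 h, and without 120 h replicate 1 at 120 h (0.129). AGX1, which converts glyoxylate to glycine, had the largest changes, 1.89 ± 0.24 at 48 h and 3.60 ± 0.24 at 340 h (limma adjusted p = 2.22e-05 and 9.84e-10). ICL1, which makes glyoxylate from isocitrate, had a change of 0.50 ± 0.28 at 48 h, which did not pass, and of 1.28 ± 0.28 at 340 h (limma adjusted p = 5.77e-04).

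Neither of the 2 regulators of the pathway passed in the step in which its enzymes rose. DAL81 (YIR023W, chromosome IX) read 6.72, 6.88 and 6.99 at 1 h, 5.49, 5.35 and 5.62 at 12 h, 5.50, 5.73 and 5.40 at 24 h, and 5.89, 5.92 and 5.44 at 48 h. The later arrays read 5.27, 5.33 and 5.17 at 60 h, 5.50, 5.24 and 5.20 at 120 h, and 5.18, 5.01 and 4.99 at 340 h. The 1 h arrays lay above all the others. Its large change was early: it was 2.60-fold lower at 12 h than at 1 h (-1.38 ± 0.16, limma adjusted p = 1.49e-07), when 33.9% of all genes were lower. At 48 h against 24 h the change of DAL81 was 0.20 ± 0.17 and did not pass (95% interval -0.15 to 0.55). At 340 h it was lower than at 24 h (-0.48 ± 0.17, limma adjusted p = 0.0167), a call lost without 24 h replicate 2 (adjusted p = 0.0795) or 340 h replicate 3 (0.0502) and turned to 0.22 by centring on reference genes.

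DAL82 (YNL314W, chromosome XIV) had the narrowest range of time means of the 9 genes, 1.0. It read 6.58, 6.55 and 6.27 at 1 h, 6.74, 6.95 and 6.96 at 12 h, 6.77, 6.69 and 7.42 at 24 h, and 6.91, 6.91 and 6.68 at 48 h. It read 6.89, 6.91 and 6.82 at 60 h, 7.44, 7.46 and 7.49 at 120 h, and 6.51, 6.85 and 6.70 at 340 h. The 120 h arrays were the highest of all, by a small margin over 24 h replicate 3. At 48 h against 24 h the change was -0.12 ± 0.18 and did not pass (95% interval -0.50 to 0.25). DAL82 was lower at 340 h than at 120 h (-0.77 ± 0.18, limma adjusted p = 0.00234). Its rise at 120 h against 60 h (0.59 ± 0.18, limma adjusted p = 0.0467) was the only call among the 9 genes in that step, where 4.6% of all genes rose and 4.95% fell. That call was lost without any 1 of the 6 arrays compared (adjusted p = 0.0851 to 0.116), and also without each 48 h array (0.0506 to 0.0648) or 340 h replicate 3 (0.0556), which enter through the shared spread. The rise at 120 h against 24 h (0.50 ± 0.18, limma adjusted p = 0.025) was lost without 24 h replicate 1 (0.0974), 24 h replicate 2 (0.127), 120 h replicate 2 (0.0564) or 120 h replicate 3 (0.0563).

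Before 24 h the genes moved both ways in the first step and none passed in the second. At 12 h against 1 h, 4 of the 9 genes were higher (26% of all genes) and 2 lower (33.9% of all genes), with a median change of -0.16. The 4 were DAL5, DAL7 (0.93 ± 0.35), DAL3 (0.59 ± 0.25) and DAL82 (0.42 ± 0.17), with limma adjusted p of 0.0269 for DAL7, 0.0451 for DAL3 and 0.0406 for DAL82. The 2 lower genes were DAL81 and DAL4. The call of DAL3 was lost without 1 h replicate 3 (adjusted p = 0.229), 12 h replicate 2 (0.165) or 12 h replicate 3 (0.125), and by a narrow margin without 24, 60, 120 or 340 h replicate 2 (0.0506 to 0.0515). That of DAL7 was lost without 1 h replicate 1 (0.104), 1 h replicate 3 (0.115), 12 h replicate 2 (0.119) or 12 h replicate 3 (0.0946). That of DAL82 was lost without 1 h replicate 2 (0.0509), 1 h replicate 3 (0.151), 12 h replicate 2 (0.107) or 12 h replicate 3 (0.11). At 24 h against 12 h limma called 0 of the 9 genes, where 2.07% of all genes were called. The 9 changes there lay between -0.20 and 0.30, and the unadjusted p was 0.368 or higher for each.

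Set against the first hour, the end of the fermentation left the genes in different places. At 340 h against 1 h, 4 genes were higher (31.9% of all genes) and 2 lower (37.7% of all genes). DAL3 was 5.97-fold higher (2.58 ± 0.25, limma adjusted p = 2.91e-09), DAL5 3.82-fold higher (1.94 ± 0.21 on its brightest probe set), DUR3 3.05-fold higher (1.61 ± 0.27) and DAL7 2.50-fold higher (1.32 ± 0.35, limma adjusted p = 0.00196). The other probe sets of DAL5 gave less, 0.24 ± 0.24 (limma adjusted p = 0.384) and 0.83 ± 0.29 (limma adjusted p = 0.0137). DAL81 was 3.49-fold lower (-1.80 ± 0.16, limma adjusted p = 7.89e-10). DAL1 was 1.69-fold lower (-0.75 ± 0.30, limma adjusted p = 0.0307). The call of DAL1 was lost without 1 h replicate 2 (adjusted p = 0.073), 1 h replicate 3 (0.0987), 340 h replicate 2 (0.084) or 340 h replicate 3 (0.0953), with array medians as the centre (0.0781) and with reference genes (-0.01, 0.967). Leaving out 1 h replicate 1 or 1 h replicate 3 added a fall of DAL4 (-0.60, adjusted p = 0.0467, and -0.65, adjusted p = 0.0245), for which the full fit gave -0.43 ± 0.24. Reference genes added rises of DAL2 (0.78, adjusted p = 0.00961) and DAL82 (0.97, adjusted p = 3.07e-04), where 55% of all genes were higher. Array medians also added that of DAL82 (0.40, adjusted p = 0.0431), where 37.3% of all genes were higher. At 340 h against 12 h, DAL3, DUR3, DAL4 and DAL5 were higher (28.3% of all genes) and DAL81 was lower (36.3% of all genes). The rise of DAL5 (0.71 ± 0.21) did not pass on its other probe sets, which gave -0.20 ± 0.24 and 0.04 ± 0.29. In that comparison the call of DAL4 was lost without 340 h replicate 2 (0.0525), and that of DAL81 (-0.43) without 12 h replicate 3 (0.098), 340 h replicate 2 (0.0611) or 340 h replicate 3 (0.0671). DAL1, at -0.60 ± 0.30, passed there only without 12 h replicate 1 (-0.96, 0.00786) or 48 h replicate 3 (0.0374). Reference genes added rises of DAL2 (0.73, adjusted p = 0.0189) and DAL7 (0.90, adjusted p = 0.0234) there, where 42.7% of all genes were higher.

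Of the 9 genes, 5 lie in a cluster of 6 neighbouring genes on chromosome IX, in the order DAL1, DAL4, DAL2, DCG1, DAL7 and DAL3. The other gene of the cluster, DCG1, whose function is unknown, was dim, with time means between 3.70 and 4.61. DCG1 was lower at 60 h than at 48 h (-0.90 ± 0.18, limma adjusted p = 0.00504), as DAL7 was, while its change at 48 h against 24 h, 0.43 ± 0.18, did not pass (limma adjusted p = 0.0964, and 0.72 with adjusted p = 0.0119 on reference genes). On each side of the cluster the nearest 2 genes were also read. At 48 h against 24 h, none of MND2 (0.13 ± 0.17), YVH1 (-0.57 ± 0.23), MGA2 (0.11 ± 0.18) and LYS1 (0.21 ± 0.21) passed. YVH1, a phosphatase gene next to DAL1, was lower than at 24 h from 60 h on and was at 4.74, 4.96 and 4.82 at 340 h, against 7.53, 7.74 and 7.30 at 24 h (-2.68 ± 0.23, limma adjusted p = 1.37e-08). MGA2, next to DAL3 and a regulator of the fatty acid desaturase, was higher at 340 h than at 24 h (1.70 ± 0.18, limma adjusted p = 3.05e-07).

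**Figure D3:**
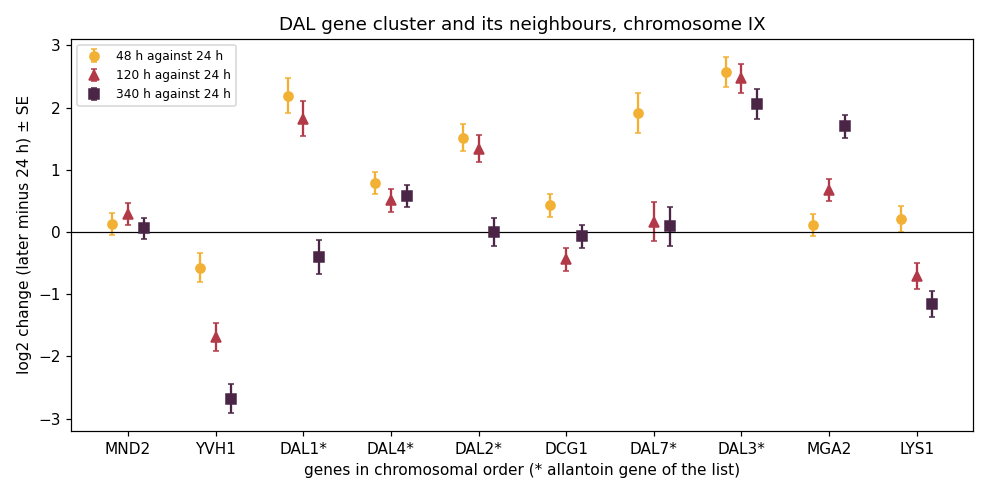
Log2 change against 24 h (vertical axis, bars of 1 SE from limma) for the 10 genes in and around the DAL cluster, in chromosomal order on the horizontal axis, at 48, 120 and 340 h. The 5 genes marked with a star are above 0 at 48 h, from 0.79 to 2.58, while the 4 flanking genes lie between -0.57 and 0.21.

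Among the GATA factors that act on these genes and their regulator URE2, GAT1 and DAL80 had the largest changes. Of the 5 listed, 2 rose at 48 h against 24 h, 3 both at 60 h and at 120 h, and 2 by 340 h, while 0 fell. The shares of all genes that rose were 12.8%, 22.6%, 26.6% and 27.8%, and the shares that fell were 8.42%, 20.8%, 26.6% and 36%. The third gene at 60 h and 120 h was GLN3, an activator, whose call at 60 h (0.60) was lost without 24 h replicate 3 (adjusted p = 0.197) or any 1 of the 60 h arrays (0.0562 to 0.0859). GAT1, the activator, read 8.64, 8.09 and 7.58 at 48 h, against 6.84, 6.89 and 7.19 at 24 h (1.13 ± 0.27, limma adjusted p = 0.00569). It went on to 11.95, 11.38 and 11.70 at 340 h, a change of 4.70 ± 0.27 against 24 h (limma adjusted p = 1.34e-10), and was higher at each later step except 60 h against 48 h (0.73 ± 0.27). That step passed without 48 h replicate 1 (adjusted p = 0.0459) or 60 h replicate 2 (0.045). DAL80, a repressor of the DAL and DUR genes, read 5.44, 5.51 and 5.37 at 48 h, against 4.68, 4.62 and 4.80 at 24 h. That change of 0.74 ± 0.22 (limma adjusted p = 0.0193) was lost without 24 h replicate 2 (adjusted p = 0.0608), 48 h replicate 1 (0.0576) or 48 h replicate 2 (0.0632). Its main rise came at 60 h, with 7.26, 6.52 and 7.18 (1.55 ± 0.22 against 48 h, 2.93e-04 as limma adjusted p). In the main fit 1 of the 9 genes, DAL7, fell in that step (4.6% of all genes), and a link to DAL80 was not tested. URE2, which holds GATA activators in the cytoplasm, did not pass in any comparison with 24 h, with changes between -0.12 and 0.17, but did on reference genes at 340 h (0.67, adjusted p = 0.00353).

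Urea also arises from arginine, through the arginase CAR1. CAR1 read 11.31, 11.30 and 10.48 at 48 h, against 9.40, 8.97 and 8.83 at 24 h, a rise of 1.96 ± 0.25 (limma adjusted p = 2.22e-05). At 60 h it read 9.63, 10.31 and 9.68 and was lower than at 48 h (-1.15 ± 0.25, limma adjusted p = 0.00924), a call lost without 48 h replicate 2 (adjusted p = 0.0517) or 60 h replicate 1 (0.057). CAR2, the ornithine transaminase of arginine breakdown, was also lower at 60 h than at 48 h (-1.71 ± 0.21, limma adjusted p = 9.72e-05). CAN1, the arginine permease of the same list, had a change of 0.69 in that step and did not pass. Against 24 h, CAR2 was lower at 60, 120 and 340 h (-1.08, -1.08 and -0.79). Of all genes, 20.8%, 26.6% and 36% were lower then. CAR1 and CAN1 were higher than at 24 h at 60 and 120 h (22.6% and 26.6% of all genes). The call of CAR1 at 60 h was lost without 60 h replicate 2 (limma adjusted p = 0.097). VHT1, the permease for biotin, the cofactor of urea amidolyase, was higher at 48 h (1.64 ± 0.25) and lower at 340 h (-0.89 ± 0.25) than at 24 h (limma adjusted p = 1.17e-04 and 0.00465). On reference genes the change of VHT1 at 340 h was -0.19 and did not pass. BPL1, the ligase that attaches biotin, had a change of 0.49 ± 0.17 at 48 h, just short of the threshold (limma adjusted p = 0.051, and 0.0363 without 24 h replicate 1).

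**Figure D4:**
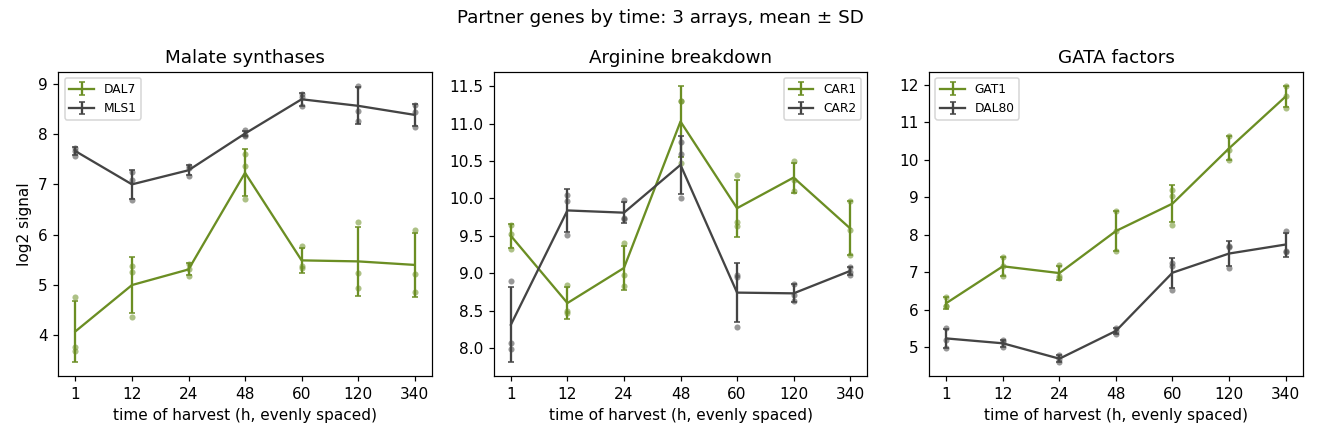
Log2 signal (vertical axes, scaled separately) of DAL7 and MLS1, CAR1 and CAR2, and GAT1 and DAL80 at 7 harvest times (evenly spaced, not to scale). Points are single arrays, and lines and bars are the mean ± SD of 3 arrays. DAL7, CAR1 and CAR2 have their highest mean at 48 h, while GAT1 is highest at 340 h and DAL80 has its main step between 48 h (5.44) and 60 h (6.99).

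Among 21 other genes listed for poor nitrogen sources under nitrogen catabolite repression, 14 rose and 0 fell at 48 h against 24 h, with a median of 1.04. The 21 include GLN1, DCG1, whose function is unknown, and CAN1, CAR1 and CAR2, so some genes given above are counted again. For the later times the counts were 15 risen and 2 fallen at 60 h (median 1.44), 14 and 2 at 120 h (1.40), and 13 and 3 at 340 h (1.28). Of all genes, 12.8%, 22.6%, 26.6% and 27.8% rose at these 4 times, and 8.42%, 20.8%, 26.6% and 36% fell. In the step at 60 h against 48 h, 6 of the 21 rose and 3 fell (3.48% and 4.6% of all genes). The 6 included UGA4, the permease for GABA, which read 10.61, 9.68 and 10.76 at 60 h, against 7.34, 7.53 and 6.77 at 48 h (3.14 ± 0.34, limma adjusted p = 4.53e-05). They also included PUT4, the proline permease (3.00 ± 0.34, limma adjusted p = 5.31e-05). Of the 5 other listed genes that need DAL81 for full expression, 2 rose at 48 h against 24 h (12.8% of all genes). At 60 h 4 rose and 1 fell (22.6% and 20.8% of all genes). UGA1 and UGA4 are on this list and among the 21. At 120 h 2 were higher than at 24 h and 1 lower (26.6% of all genes each), and at 340 h 1 was higher and 1 lower (27.8% and 36% of all genes), with a median of -0.27. In the step at 120 h against 60 h, 3 of the 5 fell (4.95% of all genes). The one that fell at 60 h was BAP3, a branched-chain amino acid permease (-2.48 ± 0.26, limma adjusted p = 5.58e-07).

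The course of each gene was set beside all others by the root mean square difference between the 7 time means, each gene centred on its own mean, as a description only. DAL1 and DAL2 were closer to each other (0.33) than either was to any of the other 7 genes. Outside the 9, no gene was nearer to DAL1, but 24 were nearer to DAL2. For each of the other 7, from 66 (DAL3) to 2806 (DAL82) outside genes were nearer than the nearest of the 9. For DUR3 the nearest genes were SDH7 (0.29), an assembly factor of succinate dehydrogenase, and QCR8 (0.36) and QCR9 (0.37), subunits of respiratory complex III. For DAL3 they were YOR289W (0.27), YJR079W (0.29) and YRO2 (0.30). For DAL7 they were more distant, MSM1 (0.45), the mitochondrial methionyl-tRNA synthetase, PET18 (0.47) and DMC1 (0.49), the meiotic recombinase. For DAL81 they were DOM34, GAS1 and SPT4, each at 0.09.

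The scale is relative, since the authors' normalization gives all arrays nearly one distribution. Centring each array on 5 reference genes (ACT1, TAF10, ALG9, UBC6 and TFC1) shifted the all-gene median, relative to 24 h, by 0.28 for 48 h, 0.22 for 60 h, 0.53 for 120 h and 0.70 for 340 h. The share of called genes that were higher was then 88.5%, 72.2%, 81.9% and 77.1%, against 60.3%, 52.1%, 50% and 43.5% without it. For the other comparisons it was 91.4% against 48.1% at 120 h against 60 h, 55.1% against 37.4% at 340 h against 120 h (48.4% on array medians), and 58.5% against 43.4% at 12 h against 1 h. It was 3.88% against 38.5% at 24 h against 12 h, 73.5% against 45.8% at 340 h against 1 h, and 70.1% against 43.8% at 340 h against 12 h. The reference genes did not move alike, with changes at 340 h against 24 h from -1.60 for TAF10 to 0.11 for ACT1. On that scale every rise of the allantoin and urea genes against 24 h given above passed, and 8, 6, 8 and 6 of the 9 were higher at 48, 60, 120 and 340 h, where 22.1%, 29.8%, 51% and 52.2% of all genes were. The additions were DAL81 at 48 h (0.49), DAL4 at 60 h (0.57), DAL7 at 120 h (0.70) and at 340 h (0.79), and DAL2 at 340 h (0.70).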

How the data were processed

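Per the submitters' processing notes, the authors used RMA and affy. The deposited series table holds log2 signals per probe set. No version or parameter is given in the sources used here. Of 9335 probe sets, 60 are controls, 2443 have no gene in the annotation supplied and 328 have several. The other 6504 name 1 gene each, and the brightest on average represented it, giving 5656 genes. Symbols and gene order are those of RefSeq assembly R64.

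Models of the time means used limma 3.58.1 (R 4.3.3). They took the 15 arrays of 24 h to 340 h, or all 21 where 1 h or 12 h was compared. Tests were two-sided and adjusted by the Benjamini-Hochberg method over all 5656 genes. With 3 arrays per time, the number of arrays limits the precision. On simulated arrays given the spread of each gene, pooled over the times, the fit called 72% of 2-fold and 100% of 4-fold changes at 48 h against 24 h. Unchanged genes made up 5.49% of those calls. The simulated noise was independent between genes, and far fewer genes changed than the 1199 called in the data. These shares may therefore not carry over to the data. The genes, lists and comparisons were chosen with earlier results of these data known. All 10 genes were to be named, with genes of fixed lists (GATA factors, poor nitrogen use, DAL81 targets, glyoxylate, arginine, biotin, DAL4 relatives, chromosomal neighbours) and the 3 nearest in course for the widest-ranging gene of each role. Alternatives were the arrays fitted, the probe sets, 2 scalings, a filter on dim genes, the variance model, a replicate block and each array left out.

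Whether replicate numbers act as pairs was judged by whether all correlations of same-numbered deviations were over 0.1. That held in the steps to 120 h from 60 h (0.16 or more) and to 340 h from 120 h (0.15 or more), from the data and not from the labels. The main fits had no replicate block, so their tests were not paired in any step. As an alternative, the block changed no call of the 9 genes in those steps.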

Additional observations from a re-analysis of the deposited data

How the results depend on the processing

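Of 2347 values of single allantoin and urea genes under the alternatives, 2263 kept their call, 56 lost it, 26 gained one and 2 turned round. For the genes of the other lists it was 10111 of 10436, with 179 lost, 140 gained and 6 turned round. A value that passed in neither fit counts as kept. All that turned round did so on the reference genes: DAL81 at 340 h against 24 h (0.22) and 12 h (0.08), BPL1 at 340 h against 24 h (0.22), DCG1 and URE2 at 340 h against 24 h (0.63 and 0.67) and against 1 h (0.56 and 0.43), and YHI9 at 340 h against 1 h (0.11). The cause was not tested.

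The number of the 9 genes called moved by over 1.5 times in 4 of the comparisons, in 2 of them only where an array was left out. At 12 h against 1 h it was 6, and 3 without 1 h replicate 3, 12 h replicate 2 or 12 h replicate 3. At 340 h against 12 h it was 5, and 3 without 340 h replicate 2. At 60 h against 48 h it was 1, and 2 with all 21 arrays or on the reference genes, 3 on array medians and 4 with the replicate block (DUR3, DAL1 and DAL81 added), where the arrays share only a number, or without 48 h replicate 3. At 120 h against 60 h it was 1, and 2 on the reference genes and 0 on array medians. With each array left out in turn the counts were 6 to 7 at 48 h, 5 to 5 at 60 h, 5 to 7 at 120 h and 4 to 5 at 340 h against 24 h. They were 1 to 4 at 60 h against 48 h, 0 to 1 at 120 h against 60 h, 3 to 3 at 340 h against 120 h, 3 to 6 at 12 h against 1 h, 0 to 0 at 24 h against 12 h, 5 to 7 at 340 h against 1 h and 3 to 6 at 340 h against 12 h. All 9 passed both F tests each time. Over all genes, the number called at 60 h against 48 h was 457, with 291 on the reference genes, 646 with the replicate block and 223 without 48 h replicate 3. At 120 h against 60 h it was 540, and 857 on the reference genes. At 24 h against 12 h it was 117, and 185 with the replicate block. The filter on dim genes and the other variance model changed no call of these genes, and the filter left out DAL4. The mean of all probe sets lost DAL5 at 48 h against 24 h (0.43, adjusted p = 0.0948) and at 340 h against 12 h (0.18, adjusted p = 0.383). The dim signals of DAL4 and DCG1, and of GLN3 (time means 3.64 to 4.49) and BPL1 (3.22 to 4.30), limit what can be seen of small changes there. DAL7 was also dim at 1 h (mean 4.08), which limits its changes against that time.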
